A study of Rattus norvegicus with 5 samples.

Results

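Rat skin taken 60 days after irradiation was compared with rat skin taken 28 days after irradiation, using 2 of the 5 single-cell libraries of the series, the library labelled irradiated 60 days and the library labelled irradiated 28 days. The other libraries were an unirradiated control and skin at 7 and 14 days, and all were 3' droplet libraries of dissociated skin from Rattus norvegicus. A barcode was kept as a cell if it held 500 or more unique molecular identifiers (UMIs, counted transcript molecules) from 300 or more genes, with no more than 20% of them mitochondrial, which left 17581 cells of the 43408 kept in the whole series. According to the study's methods, male Sprague-Dawley rats received a single electron-beam dose to the buttock and the dissociated cells were sorted to remove dead cells. The latest library is not described there, and neither its dose nor the number of animals behind any library is given in the sources used here.

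Irradiated skin passes from an acute stage, with loss of epidermal cells, inflammation and regrowth, to a late stage in which the dermis can remain short of cells and rich in matrix. In injured epidermis, keratinocytes leave their resting program and make stress keratins, alarmins such as the S100a8 and S100a9 proteins, and growth factors of the epidermal growth factor family. Fibroblasts of injured dermis make metalloproteinases, matricellular proteins and contractile proteins, and T cells that release interleukin 17 act on keratinocytes at barrier surfaces. The comparison asks which of these programs stood nearer to the control level at 60 d than at 28 d, and which did not.

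Each time point was 1 library, so nothing here tests the effect of time: intervals are exact 95% intervals that cover counting error only, and differences between rats, sampling and sequencing runs cannot be told apart from time. The control library is given beside each value, highest and lowest refer to the control, 28 d and 60 d libraries, and the labels do not say at which time or age it was taken. The 28 d library held 10721 barcodes, of which 9033 were kept with a median of 5656 UMIs, and the 60 d library held 9660, of which 8548 were kept with a median of 13229.5. The 2 libraries shared 23 kept barcodes. Levels are UMIs summed over the cells of a compartment and divided by all UMIs of that compartment, times 1000000 (counts scaled to that total, CPM), so that each is a mean weighted by the UMIs of each cell. A compartment is the set of cells gated by a panel of marker genes, and is named here as cells resembling that type. A gene was measured in a compartment if it reached 50 CPM and 10 UMIs in either library, and it was called higher or lower if it differed by at least 2-fold. Of 1252 genes measured in all 6 compartments compared, 3 were higher in every compartment (Ppia, Vbp1 and Zbed5) and 6 were lower in every compartment (S100a8, Serpinb2, Sprr1a, Stfa3, Txnrd1 and AABR07034362.2). Ppia, a peptidyl-prolyl isomerase made in all cells, stood at 1458, 343 and 825 CPM in keratinocyte-like cells of the control, 28 d and 60 d libraries, and at 1084, 210 and 520 in T or NK-like cells. Keratinocyte genes such as Sprr1a were also counted at low level in cells of every other compartment. The part of library-wide shifts and of free keratinocyte RNA in the differences that follow was not tested.

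The composition of the skin suspensions differed mainly in immune cells and keratinocytes, while the low fibroblast share was level. Immune cells together made up 4.86% of kept cells in the control, 21.3% at 28 d and 4.09% at 60 d, a difference of -17.2 percentage points between the irradiated libraries (from -18.2 to -16.3). Keratinocyte-like cells were 46.4%, 51.6% and 76.7% of cells in the same order. Fibroblast-like cells were 31.4% of the control library, 6.48% at 28 d and 6.54% at 60 d, a difference of 0.06 points whose interval ran from -0.67 to 0.80. Its sign turned with stricter filters on barcodes (-1.39 points), and on cells thinned to equal depth (-0.32 points). Thus the immune share at 60 d lay close to that of the control, and the fibroblast share lay as far below it as at 28 d.

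**Figure D1:**
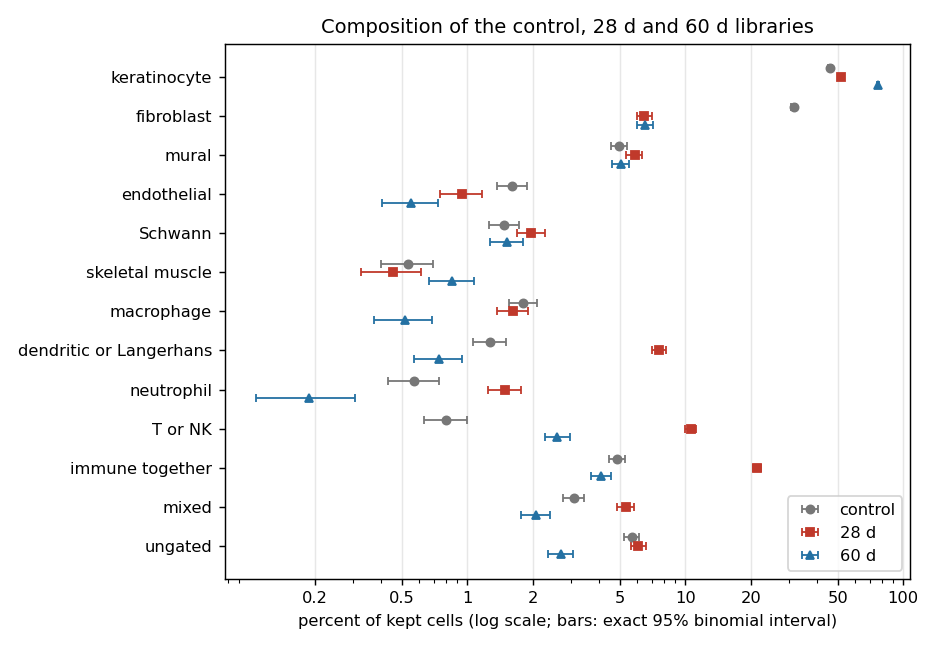
Percent of kept cells (log axis) in each gated compartment of the control, 28 d and 60 d libraries; points are single libraries and bars are exact 95% binomial intervals. The T or NK, dendritic and neutrophil points stand highest at 28 d, and the fibroblast points of both irradiated libraries (6.48% and 6.54%) lie together under the control point (31.4%).

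Within the immune cells, T or NK-like cells numbered 81 in the control, 956 at 28 d and 221 at 60 d, which were 0.80%, 10.6% and 2.59% of kept cells. Dendritic or Langerhans-like cells, which present antigen in the epidermis and dermis, were 1.27%, 7.59% and 0.74%. Both shares were lower at 60 d than at 28 d, and at 60 d the T or NK share lay above the control and the dendritic share under it. Neutrophil-like cells fell from 134 at 28 d to 16 at 60 d, against 58 in the control, and macrophage-like cells from 146 to 44, against 183. As a share of immune cells, T or NK-like cells were 16.4% in the control, 49.6% at 28 d and 63.1% at 60 d, whereas macrophage-like cells were 37.1%, 7.58% and 12.6%. The immune compartment at 60 d was therefore small, as in the control, but differently made up.

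The mural and Schwann shares differed less, in proportion, than the endothelial share. Mural-like cells (pericytes and smooth muscle) were 4.98%, 5.85% and 5.05% of kept cells, and Schwann-like cells 1.48%, 1.96% and 1.52%. Endothelial-like cells were 163 cells in the control, 85 at 28 d and 47 at 60 d, or 1.61%, 0.94% and 0.55%. The endothelial share was thus lower at 60 d than at 28 d by 0.391 points, with an interval from -0.656 to -0.130. Mast-like cells were 40 in the control, 4 at 28 d and 5 at 60 d. Shares sum to a whole, so a larger keratinocyte share lowers all others, and the yield of each cell type from dissociation was not measured.

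Keratinocyte-like cells held fewer transcripts of most wound genes at 60 d than at 28 d, and not all of these genes were at the control level. Wound and stress genes were lower at 60 d than at 28 d in 10 of the 13 measured, and fatty acid binding, gap junction and cornified envelope genes were among the largest differences. Several genes, among them Sprr1a and Pdpn, stood at or under their control level at 60 d, while S100a8, S100a9, Krt16 and Wfdc18 remained above it. Over all 2201 genes measured in 6552 cells at 60 d and 4658 at 28 d, 24 were higher (1.09%) and 110 were lower (5.0%).

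Krt16, a keratin that suprabasal keratinocytes make after injury, stood at 11.3 CPM in the control, 199 at 28 d and 44.5 at 60 d, a log2 ratio of -2.16 between the irradiated libraries with an interval from -2.21 to -2.12. S100a8, a subunit of the alarmin calprotectin, stood at 6.20, 1071 and 300. Its partner S100a9 stood at 15.2, 927 and 325. These genes had the same order in the 3 libraries, lowest in the control and highest at 28 d, with the 60 d value between. Wfdc18, which encodes a small secreted protein with a whey acidic protein domain, stood at 0.297 in the control, 1239 at 28 d and 623 at 60 d, and Stfa3, a stefin that inhibits cysteine proteases, at 1896, 12689 and 5125. Wfdc18 is thus the member furthest from its control level at 60 d. The growth factor genes of the list behaved differently. Areg (amphiregulin) stood at 188, 528 and 162. Ereg (epiregulin) stood at 73.4, 120 and 29.5, and Hbegf at 169, 273 and 128. All 3 were highest at 28 d and under their control level at 60 d. The median log2 ratio of the 13 genes was -1.63, beside 0.01 over all genes measured in the compartment.

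**Figure D2:**
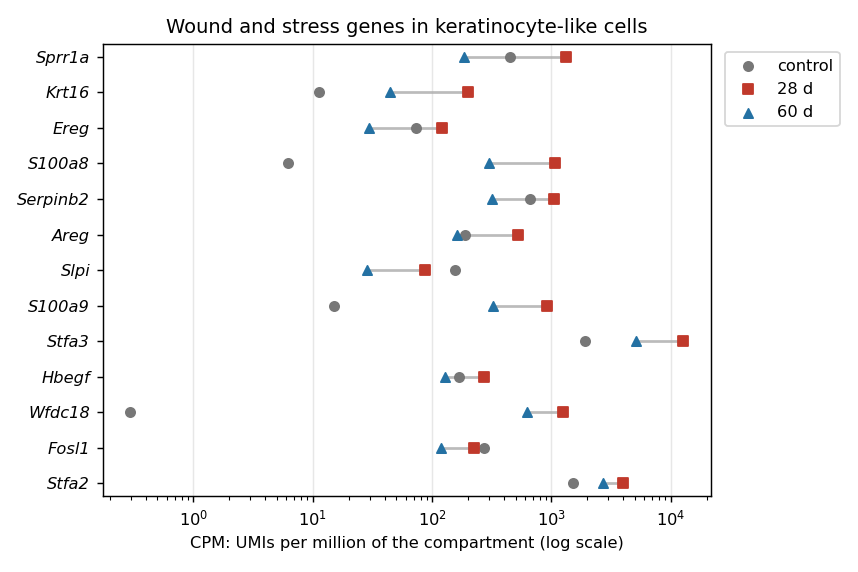
CPM (log axis) of the 13 measured wound and stress genes in keratinocyte-like cells, with 1 point for each of the control, 28 d and 60 d libraries and a line between the irradiated pair. Every 60 d point lies left of its 28 d point, while S100a8 (300 against 6.20) and Wfdc18 (623 against 0.297) remain right of the control.

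The share of cells in this state was counted on cells thinned to 1000 UMIs each, because the libraries differed in depth. Cells with at least 2 of the 3 genes of the wound gate (Krt16, S100a8 and S100a9) were 7 of 4656 in the control (0.15%), 726 of 4545 at 28 d (15.97%) and 238 of 6512 at 60 d (3.65%). In fibroblast-like cells, which should lack the state, the thinned shares were 0.0992%, 0.353% and 0 of 514 cells, which allows a share of up to 0.584%. Without thinning, the keratinocyte shares were 0.638%, 41.9% and 13.3%. The wound state was thus carried by a minority of keratinocytes at 60 d, and that minority was above the control share on either count.

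The largest difference in keratinocyte-like cells was in Grhl3, a grainyhead transcription factor of epidermal differentiation and barrier repair, which stood at 162 in the control, 210 at 28 d and 19.3 at 60 d (10.9-fold lower than at 28 d). Unlike the alarmins, Grhl3 at 60 d lay well under its control level. Sprr1a, a cornified envelope precursor, stood at 450, 1325 and 186, a 7.11-fold difference, and was counted in 70.4% of cells at 28 d and 22.0% at 60 d. Gjb2 (connexin 26), a gap junction protein of hyperproliferative epidermis, stood at 40.8, 508 and 74.5. Fabp5, the epidermal fatty acid binding protein, stood at 1498, 8215 and 1841. Gjb2 and Fabp5 thus lay far nearer to the control level at 60 d than at 28 d. Pdpn (podoplanin), which migrating keratinocytes make, stood at 11.7, 64.5 and 11.3, and Ldah, a lipid droplet hydrolase, at 30.6, 162 and 29.3, both level with the control at 60 d. Prdm1 (Blimp1), a transcriptional repressor of epidermal differentiation, stood at 47.3, 72.0 and 13.3. The amino acid transporter Slc6a14 stood at 27.5, 70.1 and 10.1. Phlda1, which growth factor signalling induces, stood at 388, 846 and 189. These last 3 were under the control level at 60 d, as Grhl3 was.

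The region before the start of Sprr1a is shown because the gene had the largest difference within the wound list. It comes from RefSeq on build GRCr8, which is not the build of the files, and lies at chr2:180752626-180752875 on the minus strand, the 250 bases before the annotated start read 5' to 3' along the gene. Capitals mark the AP-1 motif, bound by dimers of Fos and Jun proteins, searched as TGAGTCA on both strands of windows of 300 bases that end 50 bases past the start. It is present 2 times, 147 and 117 bases before the start, and a TATAAA match on the gene strand begins at 46 bases.
Sprr1a: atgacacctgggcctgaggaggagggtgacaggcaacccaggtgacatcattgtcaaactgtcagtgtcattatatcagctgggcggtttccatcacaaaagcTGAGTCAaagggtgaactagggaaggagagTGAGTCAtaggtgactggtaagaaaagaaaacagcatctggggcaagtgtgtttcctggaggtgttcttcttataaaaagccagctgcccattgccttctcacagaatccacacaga
Over all 33469 RefSeq promoters, 4.63% held the AP-1 motif and 8.80% held TATAAA. Of the 10 genes with the lowest ratios in keratinocyte-like cells, 8 had a promoter in the table and 2 held the motif, Sprr1a and Slc6a14. Of the 10 with the highest ratios, 9 had a promoter and 0 held it. Of the 13 measured genes of the wound list, 9 had a promoter and 1 held the motif, Sprr1a itself. A match describes letters only and says nothing about binding.

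The genes that were higher at 60 d included growth regulators of the basal layer. Id1, an inhibitor of differentiation and target of bone morphogenetic protein signalling, stood at 588 in the control, 181 at 28 d and 456 at 60 d. Its relative Id3 stood at 840, 127 and 294. Both were lowest at 28 d and nearer to the control at 60 d. Aprt and Pnp, enzymes of purine salvage, stood at 109, 13.9 and 77.6, and at 79.7, 21.5 and 57.2. Both lay within 1.5 times of the control at 60 d. Btf3, a nascent chain factor, stood at 204, 26.3 and 79.1, and Gnas, a G protein subunit, at 146, 21.4 and 53.8. Aldh3a1, an aldehyde dehydrogenase, stood at 56.5, 24.1 and 55.1, and Cmss1 at 62.1, 29.6 and 67.9. Ppia and Zbed5, which were also among the 10 highest here, were higher in every compartment, and all 10 of these genes were lower at 28 d than in the control and at 60 d. At 14 d, Id3, Cmss1 and Aldh3a1 were lower still.

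Keratinocytes were also split into suprabasal and basal cells by which panel of the pair scored higher, a split added after the data were seen, with 226 cells at 28 d and 174 at 60 d close to the line. Suprabasal cells were 16.5% of keratinocyte-like cells in the control and, by day 7, 14, 28 and 60 in turn, 10.6%, 50.4%, 37.3% and 16.3%. The difference between the irradiated libraries was -21.05 points (from -22.7 to -19.4), and the share at 60 d was level with the control. Within suprabasal cells, 10 of 13 measured wound genes were lower, with a median of -1.52, beside 5.14% lower and 1.08% higher of the 1944 genes measured. Within basal cells, 6 of 11 were lower, with a median of -1.05, beside 4.35% lower and 0.659% higher of 2275. The part of the smaller suprabasal share and of free RNA in the lower wound genes was not tested. Suprabasal cells also held Krt12 at 0, 61.8 and 5.52 CPM and Car2, a carbonic anhydrase, at 0, 83.6 and 7.95, both counted in no control suprabasal cell. Krt12 is a keratin best known from corneal epithelium. Higher at 60 d were Nlrp10, a member of the NLR family made in epidermis (97.1, 15.6 and 52.9), and Apoc1, an apolipoprotein (493, 62.9 and 206).

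Other programs of the epidermis differed less. Of 11 measured differentiation genes, 4 were lower (the transglutaminases Tgm1 and Tgm3, Lypd3 and the tight junction gene Cldn4), with a median of -0.67. Tgm3 stood at 262, 1254 and 539, and Cldn4 at 764, 430 and 184. Among the basal genes, 1 of 9 was lower, Igfbp3 at 134, 223 and 92.9, and the median was 0.05. Hemidesmosome genes stayed level, with Itga6 at 207, 239 and 239 and Col17a1 at 504, 526 and 715. Proliferating cells, counted on thinned cells, were 8.20%, 9.04% and 8.80%, and none of 7 measured proliferation genes reached 2-fold, although all 7 were higher at 60 d than at 28 d, with a median of 0.34. Their summed level was 1217, 696 and 882. Within basal cells, 6 of 9 measured proliferation genes had a log2 ratio above 0, with a median of 0.16. Within suprabasal cells it was 0 of 2, with a median of -0.22. Of 7 basal genes measured within basal cells, 2 were lower, and the median was -0.40. Basal cells were 60.7% of keratinocyte-like cells at 28 d and 82.7% at 60 d. The part of that share in the medians over all keratinocyte-like cells was not tested.

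On thinned cells, the share with hair follicle markers was level between the irradiated libraries and low beside the control. Keratinocyte-like cells with follicle markers were 13.4% of thinned cells in the control, 3.45% at 28 d and 3.47% at 60 d, while fibroblast-like cells gave 0.364%, 0.530% and 0.389%. Without thinning the shares were 57.9%, 32.1% and 37.7%. Sox9, a transcription factor of follicle stem cells, stood at 313, 117 and 111. None of the 4 measured follicle genes differed by 2-fold between the irradiated libraries. The median log2 ratio of these 4 genes over the control was -0.75 at 28 d and -0.31 at 60 d. The follicle share on thinned cells thus lay as far from the control at 60 d as at 28 d. Without thinning, where depth differed, the share lay nearer to the control at 60 d, as did the median of the 4 genes.

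The main damage response genes did not stand above the control in keratinocyte-like cells at 60 d. Cdkn1a (p21), the p53 target that stops the cell cycle, stood at 468 in the control, 331 at 28 d and 182 at 60 d, and Mdm2, which limits p53, at 84.5, 87.5 and 46.6. Neither differed by 2-fold between the irradiated libraries, with log2 ratios of -0.87 and -0.91. Of 10 p53 targets measured, 1 was lower, Sesn2 at 200, 240 and 110. Nr4a1, which encodes the nuclear receptor Nur77 that the study follows, stood at 157, 112 and 105, a log2 ratio of -0.10 (from -0.14 to -0.05). Of 10 oxidative stress genes controlled by NRF2, 2 were lower, the quinone reductase Nqo1 (87.7, 115 and 33.6) and Txnrd1 (87.8, 78.5 and 25.9). MHC class II genes were counted at 0.43% of the dendritic level at 28 d and 0.075% at 60 d, as Cd74 at 99.9 and 14.0, and dendritic or Langerhans-like cells were 7.59% and 0.74% of the libraries. The part of free RNA from those cells was not tested.

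Most of the other abundant members of these epidermal lists differed little. Stfa2, another stefin, stood at 1522, 4003 and 2716. Of the differentiation genes, Dmkn (dermokine) stood at 1054, 1382 and 961, Sbsn (suprabasin) at 1482, 1010 and 659, and the transcription factor Klf4 at 1532, 1150 and 963. Both suprabasin and Klf4 were highest in the control and lowest at 60 d. The integrin subunit Itgb4 stood at 167, 196 and 203. The sterol genes Idi1 (381, 487 and 321), Hmgcs1 (240, 343 and 221) and Fdps (230, 302 and 229) and the desaturase Scd2 (180, 363 and 257) were highest at 28 d. Of the proliferation genes, Hmgb2 stood at 752, 334 and 438 and Pcna at 178, 94.5 and 120, both highest in the control. The p53 targets Btg2 (2461, 1489 and 2646) and Plk2 (256, 215 and 167) had opposite directions. The ferritin chains Fth1 (2787, 2469 and 2343) and Ftl1 (893, 791 and 793) and the antioxidant protein Prdx1 (392.2, 506 and 524) were nearly level. None of the genes in this paragraph differed by 2-fold between the irradiated libraries.

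Fibroblast-like cells held fewer transcripts of metalloproteinase and contractile genes at 60 d than at 28 d, while their immediate early and complement genes were level. Mmp3 was 20.6-fold lower at 60 d, and 4 of 11 genes of metalloproteinases and their inhibitors and 4 of 12 contractile genes were lower. Cdkn1a and Mdm2 were lower too, and lay between the 28 d and the control level. Of 2550 genes measured in 559 cells at 60 d and 585 at 28 d, 38 were higher (1.49%) and 99 were lower (3.88%). The keratinocyte panel in these cells was at 4.18% of its keratinocyte level at 28 d and 4.17% at 60 d, and 8 of 10 measured wound keratinocyte genes were lower in them, so keratinocyte genes are not described as fibroblast genes here.

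Mmp3 (stromelysin 1), a metalloproteinase that cuts proteoglycans and activates other proteases, stood at 144 CPM in the control, 638 at 28 d and 31.0 at 60 d, a log2 ratio of -4.36 with an interval from -4.62 to -4.12. As a mean over cells rather than a sum over UMIs, the log2 ratio was -2.49. A UMI of Mmp3 was found in 12.8% of cells at 28 d and 10.0% at 60 d. Mmp13 (collagenase 3) stood at 2.38, 126 and 6.46. Both were above the control at 28 d, and at 60 d Mmp3 was under it and Mmp13 above it. Mmp14, a membrane metalloproteinase, stood at 204, 354 and 175. The aggrecanase Adamts4 was also lower but had another order, at 290, 114 and 42.2. The metalloproteinase inhibitors did not differ by 2-fold. Timp2 stood at 2202, 2163 and 2775, and Timp1 at 3460, 1334 and 732. Over the 11 genes of the list the median log2 ratio was -0.48, beside 0.03 over all genes.

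The regions before the starts of Mmp3 and Mmp13 are shown because these genes had the lowest ratios of the list and lie on the same chromosome. They lie on build GRCr8 at chr8:12925031-12925280 and chr8:12782579-12782828, both on the plus strand. Capitals again mark the AP-1 motif, which in Mmp3 begins 71 bases before the start as TGAGTCA and in Mmp13 66 bases before it as TGACTCA, its reverse complement.
Mmp3: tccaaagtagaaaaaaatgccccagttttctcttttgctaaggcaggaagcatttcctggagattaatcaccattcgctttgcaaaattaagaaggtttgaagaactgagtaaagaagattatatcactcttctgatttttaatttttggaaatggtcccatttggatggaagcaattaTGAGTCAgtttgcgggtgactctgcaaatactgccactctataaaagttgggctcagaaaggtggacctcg
Mmp13: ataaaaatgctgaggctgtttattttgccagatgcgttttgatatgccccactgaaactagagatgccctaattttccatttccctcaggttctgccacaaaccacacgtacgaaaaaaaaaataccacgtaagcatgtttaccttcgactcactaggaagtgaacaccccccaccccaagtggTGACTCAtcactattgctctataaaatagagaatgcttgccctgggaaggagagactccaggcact
Of the 11 genes of the list, 9 had a promoter in the table, and these 2 held the motif. Of the 10 genes with the lowest ratios in fibroblast-like cells, 7 had a promoter and 1 held it, Mmp3. Of the 10 with the highest ratios there, 7 had a promoter and 0 held it. A TATAAA match begins 32 bases before the start of Mmp3 and 47 bases before that of Mmp13. Among the genes of the AP-1 subunits in the same cells, Fos stood at 1590, 6362 and 8944 CPM and Jun at 1419, 6962 and 7578. The activity of these proteins was not measured, and their part in the metalloproteinase levels was not tested.

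Lcn2 (lipocalin 2), an iron-binding acute phase protein, had the largest difference, at 1.16 in the control, 269 at 28 d and 0.431 at 60 d. Only 2 UMIs were counted at 60 d against 883 at 28 d, so the log2 ratio of -9.29 has an interval from -12.3 to -7.43. The gene was found in 11.8% of fibroblast-like cells at 28 d and 2.47% of keratinocyte-like cells, at 269 and 3.26 CPM, and at 109 in neutrophil-like cells. Lbp, the lipopolysaccharide binding protein of the acute phase, followed the same order at 8.98, 110 and 5.60. Both acute phase genes were thus near or under the control at 60 d. Wnt5a, a ligand of noncanonical Wnt signalling, stood at 7.66, 90.9 and 18.1. Inhba, the activin A subunit, stood at 47.9, 231 and 58.8, with a log2 ratio of -0.97 as a mean over cells. These signalling genes were highest at 28 d and somewhat above the control at 60 d. Igsf10 stood at 20.7, 72.0 and 10.98, and Pappa2, a protease that frees insulin-like growth factors, at 61.2, 111 and 30.8, under the control at 60 d. Hmox1, a heme-degrading stress enzyme, stood at 512, 245 and 46.5, and the small heat shock protein Cryab at 814, 386 and 80.3. These stress genes were highest in the control and lowest at 60 d. Areg was lower as well, at 54.2, 70.8 and 10.98, a gene that keratinocytes and T or NK-like cells also held.

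**Figure D3:**
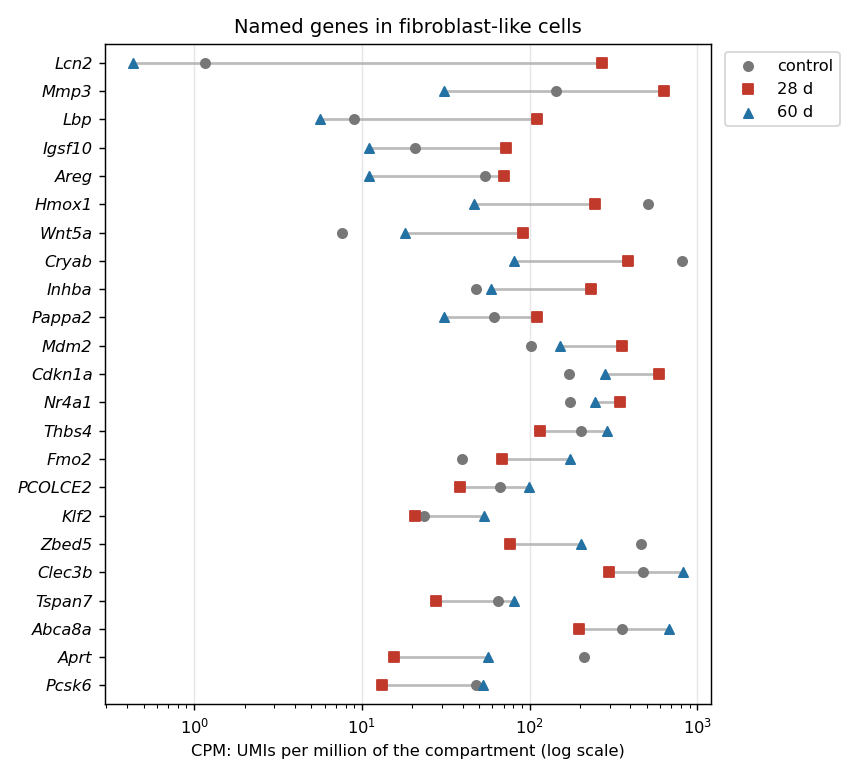
CPM (log axis) in fibroblast-like cells of the 10 genes with the lowest and the 10 with the highest ratios of 60 d over 28 d, with Mdm2, Cdkn1a and Nr4a1 between them; each point is 1 library. Lcn2 and Mmp3 span the widest gaps, and Mdm2, Cdkn1a and Nr4a1 at 60 d lie between the 28 d and control points.

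Matrix genes separated by class. Of 14 matricellular genes, whose products sit in the matrix without building it, 4 were lower and 2 were higher. Tnc (tenascin C), made in healing wounds, stood at 59.8, 242 and 74.7. Cthrc1 stood at 157, 221 and 77.5, and Thbs1 at 70.7, 64.1 and 21.7. These were lower, as was Tnn, and Tnc and Cthrc1 were highest at 28 d. The higher members were Thbs4 at 202, 115 and 291 and Smoc2 at 559, 382 and 811, both above the control at 60 d, and the median of the list was 0.10. As a mean over cells the log2 ratio of Thbs4 was 0.61, under 2-fold. Of 15 collagens that were not gate markers, 2 were lower, Col5a3 (565, 271 and 99.0) and Col11a1 (14.9, 57.4 and 21.5), with a median of -0.26. Elastic fibre genes were lower in 1 of 17, Ltbp1, with a median of 0.01, for example Eln at 471, 276 and 227 and Fbln2 at 581, 497 and 716. Most genes of these 2 lists therefore differed by less than 2-fold, although 14 of the 15 collagens had a log2 ratio under 0. The gate markers Col1a1 (37585, 43014 and 36492) and Col3a1 (35572, 20944 and 21001), which were far more abundant, also differed by less than 2-fold.

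Contractile genes, which mark myofibroblasts, stood between the control and 28 d. Tagln, an actin-binding protein, stood at 35.3, 125 and 48.0. The tropomyosin Tpm2 stood at 43.7, 124 and 53.4, and the myosin light chain Myl9 at 18.6, 51.9 and 24.8. The cadherin Cdh11 stood at 18.6, 73.5 and 35.5. These 4 were lower, the other 8 measured were not, and the median over the 12 was -0.82. Fn1 (fibronectin) was among those that were not, at 981, 1570 and 1307. Mural-like cells held Tpm2 and Myl9 at far higher level, and Tagln is a marker of the mural gate. The part of mural RNA in these fibroblast values was not tested. Of 12 TGF-beta signalling genes, Inhba and Ltbp1 were lower and the median was -0.17.

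The genes with the highest ratios were mostly lowest at 28 d. Abca8a, a lipid transporter, stood at 355 in the control, 197 at 28 d and 682 at 60 d, and Clec3b (tetranectin) at 478, 299 and 826. Pcsk6, a proprotein convertase, stood at 48.0, 13.1 and 52.5, and the tetraspanin Tspan7 at 64.7, 27.8 and 81.0. Each of these was lowest at 28 d and at or above the control at 60 d. Aprt (211, 15.6 and 56.2) and Zbed5 (464, 76.9 and 203) were also lowest at 28 d, but lay well under the control at 60 d. Both were among the genes with the highest ratios in keratinocyte-like cells as well. PCOLCE2, an enhancer of procollagen processing, stood at 66.3, 38.7 and 99.0, and Klf2 at 23.6, 20.7 and 53.8. Fmo2, a flavin monooxygenase, had another order, at 39.6, 69.0 and 175, lowest in the control.

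Some programs of irradiated fibroblasts were alike at 28 d and 60 d. Of 24 immediate early genes, which respond within minutes to stress, 1 was higher (Klf2) and 0 were lower, and their summed level was 19102 in the control, 50855 at 28 d and 56002 at 60 d. Zfp36, which destabilises cytokine transcripts, stood at 549, 3320 and 3223. None of 8 complement genes differed by 2-fold, with C1s at 731, 1367 and 1541 and C1r at 1068, 2124 and 2269. The chemokine Ccl2, which draws monocytes, stood at 17868, 2213 and 1838, and Cxcl1, which draws neutrophils, at 13932, 4328 and 4537, both under the control at both times. Other chemokines did differ: of 10 measured, Ccl5 was higher (5.22, 3.97 and 88.5), and Ccl20 (168, 127 and 45.0), Cxcl3 (2591, 92.7 and 23.7) and Cxcl12 (15.9, 67.4 and 32.9) were lower. Ccl5 in these cells rested on 13 UMIs at 28 d, and T or NK-like cells held it at far higher level. None of 10 interferon response genes differed by 2-fold, with a median of 0.11.

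Some damage response genes of fibroblasts were intermediate at 60 d. The summed level of the p53 list was 2384, 5534 and 5496, a sum that follows its most abundant members. Of its 11 measured genes, 8 had a log2 ratio under 0 and 3 above 0, with a median of -0.22. Cdkn1a stood at 173 in the control, 590 at 28 d and 284 at 60 d, a log2 ratio of -1.06 (from -1.16 to -0.95). Mdm2 stood at 101, 358 and 153, a log2 ratio of -1.23 (from -1.37 to -1.09). Both were nearer to the control at 60 d and still above it. Of 11 p53 targets measured, these and Sesn2 were lower, while Phlda3 stayed at 163 beside 167 at 28 d and 56.0 in the control, and Bax at 106 beside 104. Nr4a1 stood at 173, 345 and 246, a log2 ratio of -0.49, under 2-fold and between -0.51 and -0.32 in the alternative processings. Of 17 senescence and secretory genes, 4 were lower (Mmp3, Mmp13, Plat and Cdkn1a), 1 was higher (Serpine2, at 347, 197 and 419), and the median was -0.68. Il6 was at 873, 675 and 366, a difference under 2-fold.

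The other abundant members of the fibroblast lists, named next, differed by less than 2-fold. The gelatinase Mmp2 stood at 1113, 2165 and 1554. Of the matricellular genes, Sparc stood at 17406, 14435 and 16039, Ccn1 at 243, 871 and 953, and Postn (periostin) at 1567, 464 and 806. Ccn1 was thus above the control at both times and Postn under it. The collagens Col6a2 (1683, 2180 and 1750), Col4a1 (1215, 706 and 629) and Col12a1 (469, 596 and 451) and the procollagen genes Pcolce (1665, 1756 and 1658) and Serpinh1 (1142, 1295 and 1319) differed little between the irradiated libraries. Of the contractile list, Cald1 (caldesmon) stood at 267, 365 and 285. The immediate early genes Fosb (1820, 4808 and 5710) and Junb (1187, 3689 and 4414) and the complement inhibitor Serping1 (442, 1321 and 967) were above the control at both times. Igfbp7 stood at 1621, 2526 and 3404, Igfbp6 at 2427, 2259 and 3253, and Smad7, an inhibitor of TGF-beta signalling, at 73.5, 174 and 90.2.

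T or NK-like cells held more interleukin 17 transcripts at 28 d and more cytotoxic transcripts at 60 d, and both kinds were counted at both times. Il17a was 5.68-fold lower at 60 d, Ccl5 and Ccl4 were over 6-fold higher, and 12 of 24 measured effector and state genes were higher while 8 were lower. Of 2297 genes measured in 221 cells at 60 d and 956 at 28 d, 87 were higher (3.79%) and 318 were lower (13.8%), and the median over all of them was -0.17. The keratinocyte panel in these cells was at 3.31% of its keratinocyte level in the control, 8.05% at 28 d and 3.89% at 60 d. The 5 genes with the lowest ratios were Sprr1a, Areg, Gjb2, Serpinb2 and Ldah, and 10 of 10 measured wound keratinocyte genes were lower. Keratinocyte-like cells held Sprr1a, Gjb2 and Serpinb2 at far higher level. Sprr1a, for example, stood at 7.85, 186 and 4.64 in T or NK-like cells. The gap at 28 d was smaller for Areg, at 159 CPM against 528 in keratinocyte-like cells, and for Ldah, at 63.4 against 162.

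Il17a, the cytokine that drives neutrophil recruitment and antimicrobial genes in epidermis, stood at 15.7 CPM in the control, 5407 at 28 d and 952 at 60 d. A UMI of Il17a was found in 63.9% of T or NK-like cells at 28 d and 19.9% at 60 d, and in 8.67% and 0.565% of keratinocyte-like cells, which should lack it. Its relatives followed, with Il17f at 10.5, 480 and 67.3 and Il22 at 0, 132 and 27.8. All 3 cytokines were lower at 60 d than at 28 d and above the control. Rora, a nuclear receptor of this cell program, stood at 238, 479 and 143, and the interleukin 2 receptor Il2ra at 102, 672 and 249. The homing receptor Cxcr6 stood at 34.0, 81.6 and 33.6, and the checkpoint receptor Ctla4 at 55.0, 79.9 and 37.1. Of these receptors, Il2ra alone was above its control level at 60 d. On cells thinned to 1000 UMIs, cells with an interleukin 17 program gene were 2 of 81 in the control (2.47%), 536 of 855 at 28 d (62.7%) and 38 of 221 at 60 d (17.2%, from 12.5 to 22.8). Thinned keratinocyte-like cells gave 0, 1.78% and 0.169%, and unthinned T or NK-like cells gave 6.17%, 66.0% and 22.2%.

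The region before the start of Il17a is shown because Il17a is the cytokine that most set the 28 d cells apart from the control. It lies at chr9:30640594-30640843 on the plus strand of GRCr8, and capitals mark the core element of the receptors encoded by the ROR genes, searched as AGGTCA on both strands and present here on the reverse strand as TGACCT, 119 bases before the start.
Il17a: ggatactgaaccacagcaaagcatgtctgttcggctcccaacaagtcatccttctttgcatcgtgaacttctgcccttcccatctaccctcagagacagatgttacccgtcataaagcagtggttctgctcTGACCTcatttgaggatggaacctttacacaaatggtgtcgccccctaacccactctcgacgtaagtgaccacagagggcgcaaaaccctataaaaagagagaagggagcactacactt
A TATAAA match begins 30 bases before the start. The element was found in 16.2% of all promoters, so its presence here is a description and no more.

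Cytotoxic genes moved the other way. Gzma (granzyme A) stood at 947 in the control, 20.4 at 28 d and 202 at 60 d, a log2 ratio of 3.31 (from 2.79 to 3.86). Gzmm stood at 1685, 232 and 1325, and Gzmk at 1390, 88.8 and 475. The pore-forming Prf1 (perforin) stood at 448, 59.5 and 184. Each was lowest at 28 d and under the control at 60 d. Cd8a, the coreceptor of cytotoxic T cells, stood at 374, 73.9 and 286, and Cd8b at 39.3, 17.6 and 68.4. Among the receptors of natural killer cells, Klrd1 (CD94) stood at 222, 54.6 and 245. Klre1 stood at 73.3, 13.8 and 108, and Ly49s6 at 47.1, 6.07 and 61.5. These receptors, unlike the granzymes, were at or above the control level at 60 d. Ifng (interferon gamma) stood at 7.85, 11.6 and 60.3 and its regulator Tbx21 (T-bet) at 44.5, 28.1 and 75.4, so that both were highest at 60 d. S1pr1, a receptor of recirculating cells, stood at 183, 25.9 and 96.2, and Dapk2, a death-associated kinase, at 20.9, 13.2 and 98.6.

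Chemokines that such cells release were among the largest differences. Ccl5 stood at 14960 in the control, 1984 at 28 d and 12470 at 60 d, and a UMI of it was found in 10.4% of the cells at 28 d and 38.9% at 60 d, beside 1.85% and 2.11% of keratinocyte-like cells. Ccl4 stood at 3633, 806 and 6254, a log2 ratio of 2.96 (from 2.87 to 3.04). Ccl3 stood at 306, 170 and 1126, and Xcl1 at 110, 33.6 and 228. Ccl5 lay nearer to the control at 60 d than at 28 d, and the other 3 were above it at 60 d. Of 8 chemokines measured in the compartment, 5 were higher and 3 were lower. Cells with at least 2 genes of the cytotoxic gate were 23.5% of thinned cells in the control, 1.40% at 28 d and 10.9% at 60 d (19 of 81, 12 of 855 and 24 of 221), and 39.5%, 2.82% and 20.4% without thinning. Cells of the regulatory gate were 1.23%, 5.15% and 3.17%, on 1, 44 and 7 thinned cells. The gate of this compartment held Gzmb and Nkg7, which also belong to the cytotoxic gate, so its share is a description.

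**Figure D4:**
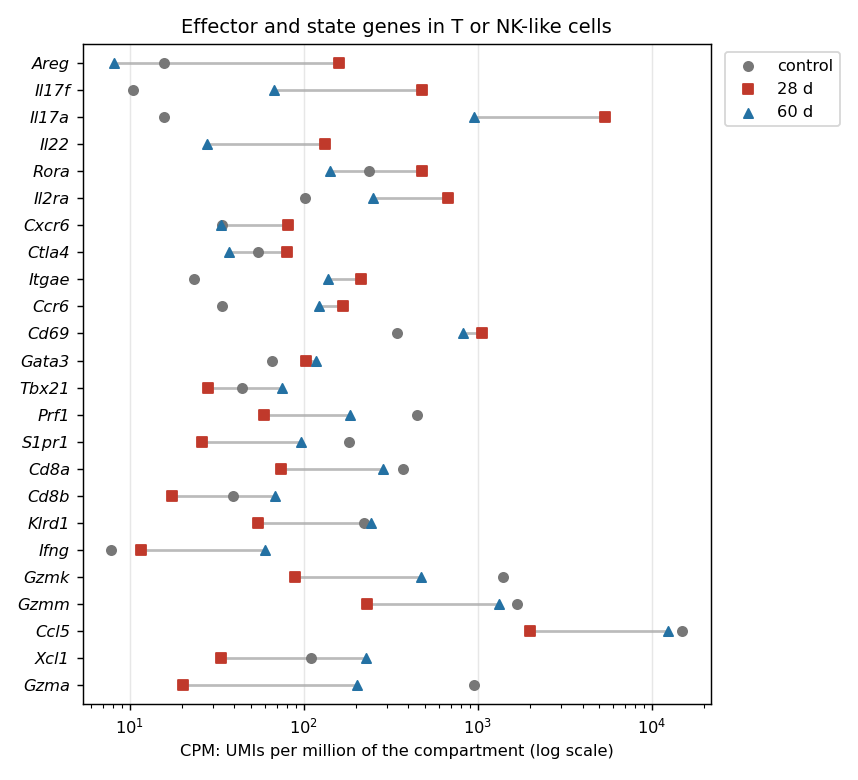
CPM (log axis) of the 24 measured effector and state genes in T or NK-like cells, ordered by the ratio of 60 d over 28 d, with 1 point per library; no point is drawn where no UMI was counted (Il22 in the control). Il17a, Il17f and Il22 at the top stand highest at 28 d, and Gzma, Xcl1 and Ccl5 at the bottom stand lowest there.

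Genes of activation and tissue residence differed less. Cd69 stood at 343, 1061 and 827, and Ccr6 at 34.0, 168 and 123. Itgae (CD103), which holds T cells in epithelium, stood at 23.6, 212 and 138. None of these differed by 2-fold, and all were above the control at both times. Nr4a1, which T cells switch on after receptor signalling, stood at 94.2, 480 and 676, a log2 ratio of 0.49 (from 0.34 to 0.65). Of 22 immediate early genes, 1 was higher (Fos, at 251, 657 and 1387), with a median of 0.42. Cdkn1a was lower, at 123, 194 and 87.0, a log2 ratio of -1.15 that was under 2-fold with the doubled gate score (-0.97) and with median-ratio scaling (-0.99). Mki67, a proliferation gene, stood at 34.0, 67.8 and 81.2.

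Mural-like cells, the pericytes and smooth muscle of vessels, had lower matrix genes at 60 d. Of 2651 genes measured in 432 cells at 60 d and 528 at 28 d, 45 were higher (1.7%) and 103 were lower (3.89%), and all 10 measured collagens were among the lower ones, with a median of -1.83 beside 0.05 over all genes. The basement membrane collagens Col4a1 and Col18a1 stood at 659, 1591 and 390 and at 367, 909 and 304. Col6a1 stood at 51.1, 130 and 11.9. Tnc stood at 50.8, 106 and 9.03, and the collagen crosslinking enzyme Loxl2 at 19.5, 60.4 and 6.86. These genes were highest at 28 d and under the control at 60 d. Fibroblast genes were also lower in these cells: Col1a1 stood at 1.14% of its fibroblast level at 28 d and 0.482% at 60 d, and the part of fibroblast RNA in the collagen result was not tested. The contractile list differed less: of 11 genes measured, 2 were lower and 0 were higher, with a median of -0.17. Its members Myl9 (2570, 3018 and 3616) and Tpm2 (3959, 5388 and 6395) were highest at 60 d. Of 8 measured genes of the vascular mural list, 3 were lower and 0 were higher, with a median of -0.56. Higher at 60 d were Tesc, a calcium-binding protein (107, 27.1 and 143), Gmpr2 (22.7, 21.3 and 72.9), and the chemokines Ccl2 (4053, 659 and 1510) and Ccl7 (128, 35.5 and 114). Of 9 chemokines, 6 were higher and 2 lower, but Ccl4 and Ccl5 rested on 1.62% of the cells. Nr4a1 stood at 504, 424 and 567, and Cdkn1a at 506, 558 and 375.

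Schwann-like cells, the glia of skin nerves, held some p53 targets at higher level at 60 d than at 28 d. Of 3102 genes measured in 130 cells at 60 d and 177 at 28 d, 176 were higher (5.67%) and 255 were lower (8.22%). Among 12 p53 targets, 3 were higher and 2, Sesn2 and Pmaip1, were lower. Ccng1 stood at 159, 145 and 386, and the cell death gene Bax at 105, 104 and 267. Mdm2 stood at 112, 102 and 222, so that all 3 were near the control at 28 d and above it at 60 d. Cdkn1a stood at 204, 548 and 566, above the control at both times and level between them. The log2 ratio of Mdm2 was 1.13 (from 0.65 to 1.63), and 0.70 on thinned cells, which is under 2-fold. Of 12 myelin and repair genes, 1 was higher and 2 were lower. The adhesion gene Ncam1 was higher at 61.9, 20.4 and 53.6, on 9 UMIs at 28 d, and the growth cone gene Gap43 (535, 106 and 39.2) and the glial filament gene Gfap (121, 111 and 48.4) were lower. The myelin genes Pmp22 (3945, 10371 and 9452) and Prx (89.96, 754 and 481) differed by less than 2-fold. Hsd11b1, which activates glucocorticoids, was higher at 127, 33.9 and 234. Vxn (36.9, 11.3 and 85.0) and Heph, a copper-dependent ferroxidase (31.0, 9.05 and 68.0), rested on 5 and 4 UMIs at 28 d. Mgp, an inhibitor of calcification, was lower at 537, 973 and 49.7, but under 2-fold on thinned cells (a log2 ratio of -0.84) and with mixed barcodes kept (-0.95). Immune RNA was lower in this compartment as well: Il17a stood at 362 at 28 d, which is 6.70% of its T or NK level, and at 0 at 60 d. Il2ra went from 39 UMIs to 0, which is 22.5-fold lower with 3 counts in place of 0. Its log2 ratio of -4.49 had an interval that reached up to -4.12.

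Dendritic or Langerhans-like cells were few at 60 d, 63 cells against 686 at 28 d, and held fewer inflammatory transcripts. Of 2391 genes measured, 174 were higher (7.28%) and 235 were lower (9.83%). Inflammatory genes were lower in 8 of 11, with a median of -2.23 beside 0.01 over all genes. The neutrophil chemokine Cxcl2 stood at 4100 in the control, 3463 at 28 d and 569 at 60 d, and Cxcl1 at 1293, 1442 and 308. Il1rn, the interleukin 1 receptor antagonist, stood at 119, 543 and 61.7, and Ccl22, a chemokine of maturing dendritic cells, at 36.7, 731 and 257. The 60 d cells thus lay under the control for Cxcl1, Cxcl2 and Il1rn, and above it for Ccl22. Of 12 NRF2 targets, 4 were lower. Nqo1 stood at 365, 189 and 47.3, and the cystine transporter Slc7a11 at 246, 74.4 and 14.4. Hmox1 stood at 2353, 133 and 18.5, and Txnrd1 at 751, 990 and 243. Heat shock genes were higher in 5 of 9, for example Dnaja1 at 523, 662 and 1638. Lgals3bp rested on 277 UMIs at 28 d and 1 at 60 d, with a log2 ratio of -5.37 and an interval from -10.7 to -2.88. Upp1, which cleaves uridine, rested on 172 and 2 UMIs (12.9-fold lower), and Ass1, an enzyme of arginine synthesis, on 298 and 4. Higher were Id1 (37.8, 18.5 and 185), the hyaluronan receptor Lyve1 (156, 3.08 and 51.4) and Ly49si1 (91.8, 5.84 and 98.7). The macrophage panel summed to 7171, 1418 and 2800 in these cells, and its part in the higher Lyve1 was not tested. Nr4a1 stood at 71.3, 56.3 and 115, and Cdkn1a at 392.1, 690 and 392.6.

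**Figure D5:**
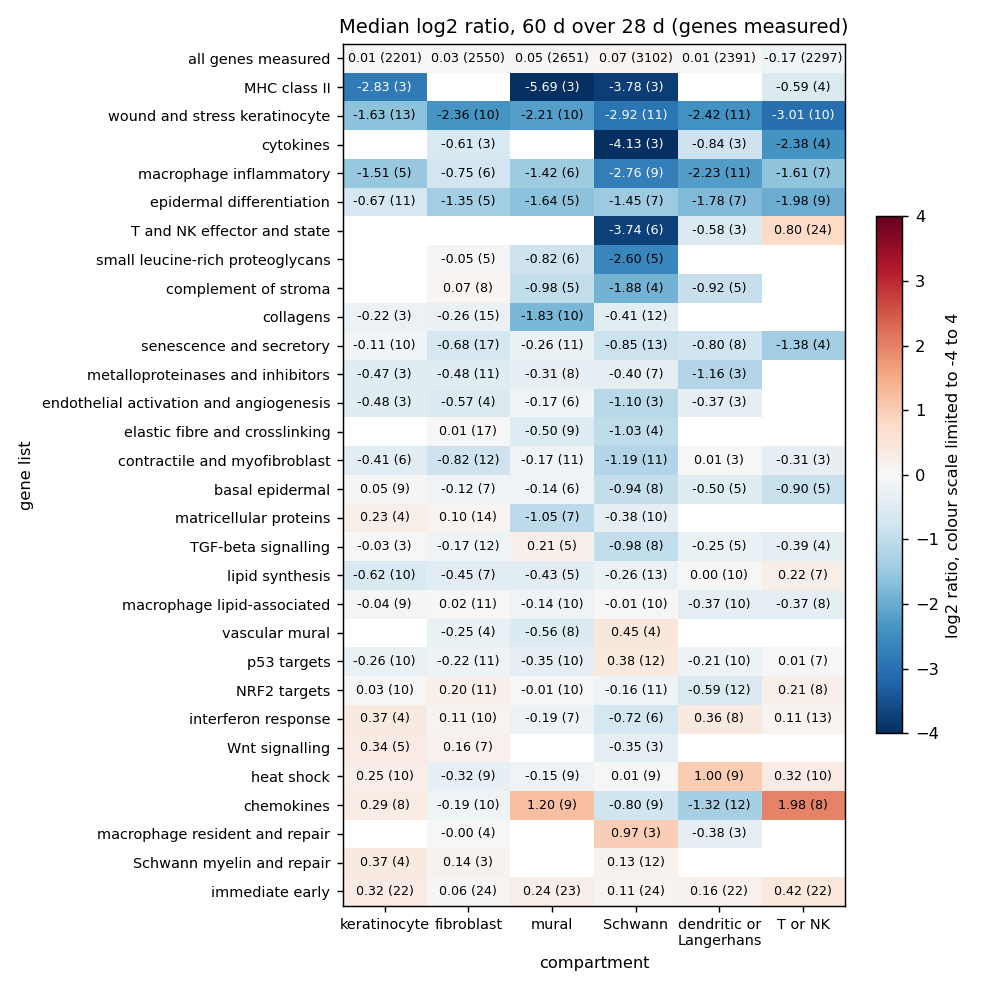
Median log2 ratio of 60 d over 28 d for each gene list (vertical axis) in each compartment (horizontal axis), with the number of genes measured in parentheses and colour limited to -4 to 4; cells with fewer than 3 genes are empty. The wound and stress list is below 0 in every compartment, and the chemokine list is above 0 in T or NK-like (1.98), mural-like (1.20) and keratinocyte-like (0.29) cells.

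Across compartments, the median of the wound keratinocyte list was below 0 in all 6, as were those of the epidermal differentiation, macrophage inflammatory and other lists. The wound median was -1.63 in keratinocyte-like cells and -2.36, -2.21, -2.92, -2.42 and -3.01 in the fibroblast, mural, Schwann, dendritic and T or NK compartments, where its genes were counted at low level. The p53 list had medians of -0.26, -0.22, -0.35, 0.38, -0.21 and 0.01 in the same order. Nr4a1 differed by at least 2-fold in only the dendritic or Langerhans-like cells of these 6 compartments, with a log2 ratio of 1.03 on 56 UMIs at 60 d, and of 0.84, under 2-fold, with the doubled gate score. The medians over all genes measured lay between -0.17 and 0.07.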

How the data were processed

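Each of the 5 libraries was a Chromium 3' v3 library of skin cells. The deposited values are raw UMI counts per gene and barcode, which the authors made, per the submitters' processing notes, on build Rnor_6.0 with STAR, Cell Ranger (version 5.0.0) and Seurat (version 3.1.1). No normalized value or cell annotation was used.

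From these counts, 32623 gene rows were summed to 30017 symbols, since 2753 rows shared a symbol. Barcodes with at least 500 UMIs, 300 genes and at most 20% of UMIs from the 13 mitochondrial genes were kept. Each marker's level in a cell was divided by the 90th percentile of its level in the cells of all libraries that held it, capped at 1, and averaged over the panel. A cell was gated to the panel with the highest score if that reached 0.1, and set aside as mixed if a panel of another lineage also reached 0.1 and 0.5 of the highest. Of 16 panels, 12 were used for this. The others, for plasmacytoid dendritic or Irf8 cells, melanocytes, adipocytes and erythroid RNA, were not used to gate cells. States within a compartment were marked by separate sub-panels. Of the symbols fixed, 121 of 128 in panels and 635 of 673 in 31 gene lists were found. No doublet caller was run, and mixed barcodes took that place. Counts were summed per library and compartment. Where 0 UMIs were counted, ratios used 3 in their place. Shares have Clopper-Pearson intervals, ratios conditional binomial intervals, and differences of shares the interval built from both; all cover counting error only, and no p-value is given for 1 library per time point. Lists leave out the markers that gate the compartment.

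The genes named were the 10 highest and 10 lowest ratios in keratinocytes and fibroblasts, 5 and 5 in T or NK cells and 3 and 3 elsewhere, among genes found in at least 10% of cells with a level of 0.1 or more of that in the highest compartment, leaving out mitochondrial, ribosomal and unnamed genes and gate markers, the 4 most abundant members of each list described, and Nr4a1, Cdkn1a and Mdm2. The part on lists was followed for most lists of keratinocytes and fibroblasts and in part elsewhere, and other list members are examples chosen after their values were seen. Members and lists were chosen with earlier results of these data known. The calculation was checked on simulated counts. Python 3.11.15, numpy 2.4.6, scipy 1.17.1, pandas 2.3.3 and matplotlib 3.10.9 were used, with RefSeq promoters of build GRCr8. Alternatives were stricter barcodes (1000 UMIs, 500 genes and 10% mitochondrial UMIs), cells thinned to 1000 UMIs, a gate score of 0.2, mixed barcodes kept, median-ratio scaling, a mean over cells, no filter on the level, and leaving out genes that may be free RNA. Some genes of these lists are not reported here.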

Additional observations from a re-analysis of the deposited data

Results flagged for a closer look

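Some named genes were at least 2-fold higher at 60 d in 1 compartment and at least 2-fold lower in another, with counting intervals beyond 2-fold on both sides; whether the compartments differ was not tested, since there are no replicates. Ccl4, a chemokine of activated lymphocytes, had a log2 ratio of 3.17 in mural-like cells and 2.96 in T or NK-like cells, but -3.23 in dendritic or Langerhans-like cells, where 4 UMIs were counted at 60 d, and in mural-like cells it was found in 1.62% of cells at 60 d. Ccl7, a monocyte chemokine, had a log2 ratio of 1.68 in mural-like cells and -3.78 in Schwann-like cells. Thbs4, a thrombospondin of the matrix, had a log2 ratio of 1.33 in fibroblast-like cells and -2.82 in Schwann-like cells. Its ratio in fibroblast-like cells was under 2-fold as a mean over cells.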

How the results depend on the processing

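The difference in the share of keratinocyte-like cells, 60 d minus 28 d, was 20.9 points with stricter barcodes, 21.0 on thinned cells and 19.2 with the doubled gate score. That of fibroblast-like cells turned sign, to -1.39, -0.319 and, with mixed barcodes kept, -0.00745 points, so no direction is given for it. That of T or NK-like cells was -6.72 with stricter barcodes, -6.70 on thinned cells, -4.92 with the doubled gate score and -9.30 with mixed barcodes kept, and that of macrophage-like cells -0.601 with the doubled gate score. Without the filter on the level, which admits genes of few UMIs, 1036 genes were higher and 1230 lower in keratinocyte-like cells, 495 and 662 in fibroblast-like cells, and 389 and 1236 in T or NK-like cells. With median-ratio scaling, which moved T or NK-like values by 0.17 on the log2 scale, 135 genes were higher there. No list median or named gene with a 2-fold difference changed sign under these alternatives. In T or NK-like cells the log2 ratio of Gzma was 6.90 with the doubled gate score. The suprabasal share, with alternatives chosen after seeing the data, kept its direction. No paired analysis was possible because each time point was 1 library, and for the same reason no replicate could be left out. Gene counts in macrophage-like cells were not run, since 44 cells at 60 d were under the minimum of 50.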
